A study of Homo sapiens with 12 samples.

Results

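The transcripts described here are small nucleolar RNAs (snoRNAs), the SNHG genes and GAS5, whose introns hold many of them, and the ribosomal RNAs that snoRNAs help to make. Members were all array probes annotated to a symbol of the form SNORA or SNORD with a number, SNHG with a number, an 18S, 28S or 45S ribosomal RNA gene, or GAS5. They came to 305 of 47230 probes, for 296 of 20046 named genes: 178 box C/D snoRNA probes (SNORD symbols), 102 box H/ACA snoRNA probes (SNORA symbols), 22 probes for 17 SNHG genes or GAS5, and 3 ribosomal RNA probes. The study hybridised total RNA of the C4-2B prostate cancer line to single-colour Illumina BeadChips. The cells are called C4-2B/181 in the sample labels and C4-2B/Rx2dox in the design text, and doxycycline (dox) was given to induce the transcription factor RUNX2. The 4 groups of 3 arrays, described as biological triplicates, were DHT with dox, DHT alone, dox alone and the ethanol vehicle. DHT (dihydrotestosterone, the androgen that activates the androgen receptor) has a stated dose of 10 mM and dox one of 250 µg/ml, both for 48 h. The labels' dose units are taken as they stand. All groups were first kept in medium with charcoal-stripped serum, and no arm of cells without the inducible gene was analysed here, so that effects of dox itself and of RUNX2 cannot be told apart.

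Most human snoRNAs are not transcribed on their own but are cut from introns of a host gene, after splicing. Box C/D snoRNAs guide methylation of the ribose in ribosomal RNA and box H/ACA snoRNAs guide the conversion of uridine to pseudouridine, each in a particle with its own core proteins. Many hosts encode ribosomal proteins or translation factors, and others, such as the SNHG genes, make a spliced RNA that is not translated into a known protein. A few snoRNAs, among them SNORD3A, SNORD13 and SNORA73, take part in cutting or maturing the ribosomal RNA precursor.

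The deposited probe intensities shared 1 distribution on all arrays, with values of 84.1 to 27321.9. A background limit of 147.4 intensity units was taken from 638 probes for olfactory receptors, taste receptors, keratin-associated proteins and defensins, taken as largely unexpressed in these cells. The 12 arrays correlated at 0.9938 to 0.9954 within groups and at 0.9769 to 0.9932 between groups, on the log2 scale. Only probes whose mean over all arrays exceeded the background limit entered these correlations. For RUNX2, probe ILMN_1716651 averaged 269.8 ± 24.3 in dox and 214.3 ± 10.1 in vehicle (SD, n = 3 each; limma adjusted p = 0.0237), and the second probe did not pass the test in that comparison (limma adjusted p = 0.95). With DHT, ILMN_1716651 averaged 303.9 ± 39.5 in DHT with dox and 285.9 ± 23.5 in DHT alone (SD, n = 3 each; limma adjusted p = 0.616), and whether these probes read the introduced gene is not given in the sources used here. The levels of cell type markers went against the prostate label in part. Of 12 prostate luminal genes with a probe, 3 (TMPRSS2, SLC45A3 and MSMB) were above background on all arrays and 4 on 0 arrays. KLK3, the gene of prostate-specific antigen, was above background on 1 array, and KLK2 and FOLH1 on 0. Of 13 breast luminal genes, 10 were above on all arrays, with ESR1 at 2157.4 to 4711.4 and GATA3 at 2472.3 to 4562.0 intensity units. SCGB2A2 and ANKRD30A, also of the breast list, were above on 0 arrays, and PGR was on 6. No fibroblast or endothelial marker was above background on every array, and 1 of 5 immune markers was. The line is therefore called only by its label here.

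Of the 305 member probes, 135 (44.3%) exceeded the limit, by their mean, in 1 or more of the 4 groups, against 46.7% of all 47230 probes. On single arrays 31.5% to 41% of the members were above the limit, against 42.3% of all probes. These were 59 of 178 box C/D probes, 55 of 102 box H/ACA probes, 18 of 22 SNHG probes for 13 genes, and all 3 ribosomal RNA probes. Above the limit in all 4 groups were 89 members, 46 were above it in some groups, and 170 were above it in none. Counted by array, 72 members were above the limit on all 12 and 126 on 0. More members were above the limit in the groups with dox: 124 in DHT with dox and 98 in DHT, and 122 in dox and 98 in vehicle. The number on each array was 120 to 125 in DHT with dox and 101 to 103 in DHT, and 114 to 125 in dox and 96 to 114 in vehicle, so that the dox groups did not overlap their counterparts in the DHT pair and met at 114 in the other. The GAS5 probe, for the host of SNORD80 and other box C/D snoRNAs, lay between 124.5 and 149.6 and was above the limit on 1 array only. SNHG3, the host of the SNORA73 snoRNAs, was likewise above it on 1 array, and neither gene entered a test.

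With dox alone, the SNHG genes that moved did so in both directions. SNHG15, SNHG1, SNHG17, SNHG6 and SNHG12 rose, and SNHG7 fell on 2 of its 3 probes. Promoter sequences are shown for 2 that rose and for the 1 that fell, each with 250 bases before the annotated start and 50 after it. The sequences are those of RefSeq for the human assembly GRCh38.p14, which had entries for 10 of the 13 tested SNHG genes (not for SNHG15, SNHG6 or SNHG9). They run 5′ to 3′ on the strand of the gene, with the transcribed bases after the annotated start in capitals. SNHG1 lies on chromosome 11 (chr11:62855836-62856135, minus strand), SNHG17 on chromosome 20 (chr20:38435279-38435578, minus strand) and SNHG7 on chromosome 9 (chr9:136728135-136728434, minus strand).
SNHG1: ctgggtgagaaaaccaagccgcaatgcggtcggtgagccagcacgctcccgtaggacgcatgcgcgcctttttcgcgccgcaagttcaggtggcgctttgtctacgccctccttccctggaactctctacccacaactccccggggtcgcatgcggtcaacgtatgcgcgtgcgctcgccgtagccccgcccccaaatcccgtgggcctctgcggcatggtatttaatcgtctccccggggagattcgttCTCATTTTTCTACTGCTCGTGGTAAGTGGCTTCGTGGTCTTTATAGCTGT
SNHG17: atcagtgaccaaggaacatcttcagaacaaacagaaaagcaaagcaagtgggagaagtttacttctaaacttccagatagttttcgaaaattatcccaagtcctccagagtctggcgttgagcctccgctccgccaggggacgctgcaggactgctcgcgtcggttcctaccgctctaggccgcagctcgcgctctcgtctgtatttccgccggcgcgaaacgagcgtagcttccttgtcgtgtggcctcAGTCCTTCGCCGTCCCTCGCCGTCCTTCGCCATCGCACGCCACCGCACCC
SNHG7: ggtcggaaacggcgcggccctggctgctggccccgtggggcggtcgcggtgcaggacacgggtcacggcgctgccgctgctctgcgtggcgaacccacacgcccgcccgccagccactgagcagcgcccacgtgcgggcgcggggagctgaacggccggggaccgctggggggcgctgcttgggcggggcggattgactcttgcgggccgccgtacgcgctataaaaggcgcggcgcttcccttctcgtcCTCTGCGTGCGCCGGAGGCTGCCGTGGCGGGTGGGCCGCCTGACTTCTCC
Some snoRNA hosts begin with a run of pyrimidines, as messages for ribosomal proteins do. Of the first 25 transcribed bases, 17 were pyrimidines in SNHG1, 19 in SNHG17 and 14 in SNHG7. These counts take pyrimidines anywhere in the 25 bases and do not measure an unbroken run. SNHG17 begins with A, which is not a pyrimidine, and the opening runs of SNHG1 (CTC) and SNHG7 (CTCT) are short. SNHG12, which also rose and whose promoter is not shown, had 20 pyrimidines and a longer opening run (CCTTTCTCCCC). Each promoter was searched on both strands for CACGTG (the E-box read by MYC and other factors), TGTGGT (a core read by RUNX factors) and AGAACA (the androgen receptor half-site). Among the 10 SNHG promoters, CACGTG was found only in that of SNHG7, with its first base 122 bases upstream of the start. TGTGGT was found only in that of SNHG5 and AGAACA only in that of SNHG17. Over all 35116 promoters of the table, 7.26% held CACGTG, 13.1% TGTGGT and 14.8% AGAACA. A match is a string of letters and was not tested as a binding site.

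In dox against vehicle, 33 of the 135 tested member probes rose and 4 fell (limma, Benjamini-Hochberg adjusted p under 0.05 over 22035 probes). Of all tested probes, 12.4% rose and 12.1% fell (24.5% either way). The members' shares were 24.4% and 2.96%, and their median log2 change was 0.135, against 0.001 over all tested probes. Above 0 were 106 of the 135, against 11051 of all 22035 tested probes. The filter asked for a mean above background in only 1 group, and more members met it in dox (122) than in vehicle (98). Members near the limit may thus have entered through groups where they are high, which would raise this count and the median. Neither was taken over only the members above background in all groups. Of the 37 called members, 34 were above it in all groups. Of the members that rose, 8 did so by 1.5-fold or more, as did 476 of all 22035 tested probes. In these bulk RNA samples a change in the share of cells and a change of RNA per cell cannot be told apart, and the shared distribution hides any change in total RNA.

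SNHG15, whose RNA holds SNORA9 in an intron, was read by a pair of probes. Probe ILMN_1898124 had 2015.9, 2078.6 and 1977.9 intensity units in dox, against 1057.8, 1185.0 and 1141.3 in vehicle. The groups did not overlap, and the log2 change was 0.84 ± 0.07 (SE; 1.80-fold; limma adjusted p = 1.51e-08). Probe ILMN_3248773 rose by 0.75 ± 0.08 on the log2 scale (limma adjusted p = 5.61e-07). SNHG1, the host of several box C/D snoRNAs, had 2186.4, 2249.8 and 2087.4 in dox, against 1151.5, 1381.7 and 1416.6 in vehicle. Every dox array lay above every vehicle array for SNHG1, with a log2 change of 0.73 ± 0.08 (SE; 1.66-fold; limma adjusted p = 7.99e-07). SNHG17 had 413.1, 530.8 and 425.0 in dox and 322.4, 318.0 and 333.6 in vehicle (log2 change 0.48 ± 0.13; limma adjusted p = 0.00827), and these groups did not overlap either. Without the second dox array the SNHG17 change was 0.37 and no longer passed (limma adjusted p = 0.0587). SNHG6 rose by 0.36 (limma adjusted p = 0.000805). SNHG12 rose by 0.32 (limma adjusted p = 0.0218), a call lost without the third vehicle array (0.25; limma adjusted p = 0.111) or the second dox array (0.29; limma adjusted p = 0.0733).

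SNHG7 went the other way on 2 of 3 probes. Its probe ILMN_3227023 had 3429.8, 3622.0 and 3461.9 in dox and 5199.0, 4944.2 and 4878.4 in vehicle, with no overlap (log2 change -0.51 ± 0.07, 1.43-fold lower; limma adjusted p = 8.78e-06). A second probe, ILMN_3233229, had 937.6, 1104.5 and 925.5 in dox and 1131.1, 1544.0 and 1490.4 in vehicle (log2 change -0.48 ± 0.12; limma adjusted p = 0.00439), and every dox array was again the lower. The third probe, ILMN_3233205, had a change of 0.25 that did not pass (limma adjusted p = 0.0652), so the probes of SNHG7 disagree. SNHG5, SNHG8, SNHG9, SNHG10, SNHG11, SNHG28 and SNHG32 did not pass in this comparison. SNHG5 changed by -0.09 and 0.02 on its probes, SNHG8 by -0.07 and SNHG9 by 0.16 (limma adjusted p = 0.183). SNHG10 changed by 0.02, SNHG11 by -0.10 and SNHG32 by 0.01 and -0.13, and SNHG28 was at background on all vehicle arrays.

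**Figure D1:**
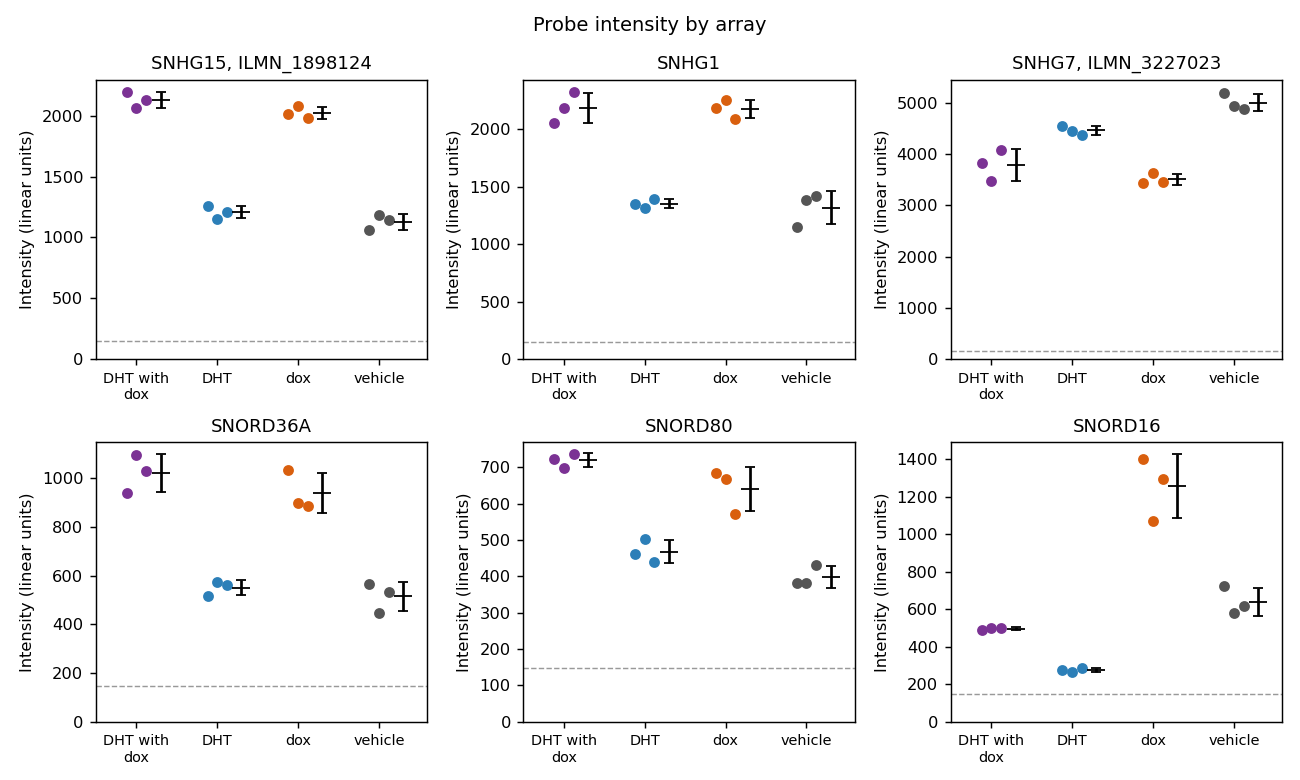
Intensity (linear units) of 6 member probes on every array, by group, with points for arrays and a bar for the mean ± SD of 3 arrays; the dashed line is the background limit of 147.4. SNHG15, SNHG1, SNORD36A and SNORD80 sit higher in both groups with dox, SNHG7 lower, and SNORD16 higher with dox and lower with DHT.

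Among box C/D snoRNAs, 13 of 59 tested probes rose with dox alone and 1 fell. SNORD16 had 1401.6, 1068.4 and 1297.3 in dox, against 724.6, 579.7 and 615.5 in vehicle. The groups were far apart, with a log2 change of 0.97 ± 0.10 (SE; 1.96-fold; limma adjusted p = 2.56e-07). SNORD36A, which lies in an intron of RPL7A, had 1035.0, 898.8 and 885.8 in dox and 564.1, 447.6 and 533.6 in vehicle (log2 change 0.87 ± 0.10; 1.83-fold; limma adjusted p = 6.5e-07). SNORD80, from an intron of GAS5, had 684.2, 667.5 and 570.5 in dox and 381.1, 380.9 and 432.0 in vehicle (log2 change 0.68 ± 0.09; 1.61-fold; limma adjusted p = 6.26e-06). For both, all dox arrays lay above all vehicle arrays. SNORD96A rose by 0.65, SNORD68 by 0.64, and SNORD30 and SNORD104 by 0.43 each on the log2 scale. SNORD57, which was above background on 0 vehicle arrays, rose at least 1.12-fold (limma adjusted p = 0.0237), a bound set by the background limit. The SNORD57 call was lost without the second vehicle array (limma adjusted p = 0.123), the third vehicle array (limma adjusted p = 0.0515), the second dox array (limma adjusted p = 0.0752) or the third dox array (limma adjusted p = 0.0501).

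The box C/D snoRNA that fell was SNORD13, which has its own transcription unit and acts on the small-subunit ribosomal RNA. It had 203.7, 170.9 and 240.2 in dox and 272.0, 381.6 and 264.4 in vehicle (log2 change -0.57 ± 0.18; limma adjusted p = 0.0269). The groups did not overlap, but the call was lost when the second vehicle array was left out (-0.40; limma adjusted p = 0.159), without the second dox array (-0.45; limma adjusted p = 0.123) and without the first dox array (limma adjusted p = 0.0612), and with a robust prior in limma (adjusted p = 0.105). SNORD3A, a factor of the first cuts of the ribosomal RNA precursor, had a change of 0.03 and its relative SNORD3D one of -0.03, and neither passed.

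Among box H/ACA snoRNAs, 14 of 55 tested probes rose with dox alone and 1 fell. SNORA50C rose by 0.58, SNORA63 by 0.53, SNORA6 by 0.50 and SNORA10 by 0.47 on the log2 scale, with limma adjusted p-values of 0.000613, 0.000201, 0.00541 and 0.00165. SNORA67 had 748.2, 690.9 and 661.3 in dox, against 537.7, 515.9 and 512.4 in vehicle (log2 change 0.42; limma adjusted p = 0.000697), with no overlap. SNORA73B, a snoRNA that acts in the maturation of the small subunit, was above background on 0 vehicle arrays on probe ILMN_3240155. There it rose at least 1.09-fold (limma adjusted p = 0.0297), a call lost without the first vehicle array (limma adjusted p = 0.117) or the third dox array (limma adjusted p = 0.163). Its other tested probe, ILMN_3243677, did not pass with dox alone. With DHT present ILMN_3243677 rose and ILMN_3240155 did not pass, so the SNORA73B probes disagree. The ILMN_3243677 call was lost without the first DHT array (0.30; limma adjusted p = 0.0558). SNORA12 fell: it had 188.0, 218.6 and 215.3 in dox and 278.4, 308.6 and 298.2 in vehicle (log2 change -0.51 ± 0.10; limma adjusted p = 0.000669), and every dox array was the lower. SNORA12 lies in CWF19L1, whose change of 0.08 did not pass.

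The same treatment was compared in the presence of DHT, on other arrays. In DHT with dox against DHT, 36 of the 135 member probes rose and 2 fell (26.7% and 1.48%), where 12.4% of all tested probes rose and 13.6% fell (25.9% either way). The members' median log2 change was 0.154, against 0.004 over all tested probes. Above 0 were 114 of the 135 members, against 11165 of all 22035 tested probes. The same limit of the filter applies to this count and median. Of the 38 called members, 31 were above background in all groups. By class, 16 box C/D, 12 box H/ACA, 6 SNHG and 2 ribosomal RNA probes rose, and 1 box H/ACA and 1 SNHG probe fell. Of the members that rose, 19 rose in both dox comparisons, which is 57.6% of the 33 with dox alone and 52.8% of the 36 with DHT present. Over all tested probes 1780 rose in both, 65.2% of the 2729 with dox alone and 65.3% of the 2725 with DHT present, so the members' shares were not above those of all probes. SNORA12 and the SNHG7 probe ILMN_3227023 fell in both. All 33 that rose with dox alone had a change above 0 with DHT present, and 34 of the 36 had one above 0 with dox alone. Called or not, 96 of the 135 members had a change above 0 in both comparisons. The matching shares over all tested probes, called or not, were not counted. These counts of direction are therefore not read as particular to the members.

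SNORD36A had 937.6, 1094.1 and 1031.3 in DHT with dox, against 516.6, 574.5 and 562.2 in DHT (log2 change 0.89 ± 0.10; 1.85-fold; limma adjusted p = 4.89e-07). SNORD16 had 488.1, 498.8 and 501.0 in DHT with dox and 277.1, 265.8 and 285.9 in DHT (log2 change 0.84 ± 0.10; 1.80-fold; limma adjusted p = 1.58e-06). Neither pair of groups overlapped, and the SNORD16 values of both were below those of the matching groups without DHT. SNHG15 had 2194.1, 2063.8 and 2126.4 in DHT with dox and 1258.0, 1155.3 and 1207.4 in DHT on probe ILMN_1898124 (log2 change 0.82; limma adjusted p = 2.2e-08). SNHG1 had 2055.7, 2179.5 and 2320.8 in DHT with dox and 1346.4, 1317.4 and 1390.1 in DHT (log2 change 0.69; limma adjusted p = 1.59e-06). These hosts were thus higher on every array with dox in either background. SNORD80 rose by 0.62, SNORA67 by 0.62, SNORA6 by 0.63, SNORD104 by 0.58 and SNHG17 by 0.49 on the log2 scale, the last not passing without the third array of DHT with dox (0.39; limma adjusted p = 0.052). SNORD65 had 201.4, 235.5 and 236.2 in DHT with dox and 130.9, 167.2 and 135.2 in DHT (fitted log2 change 0.64; limma adjusted p = 7.47e-05). Only 1 of the 3 DHT arrays was above background and their mean of 144.4 lay under the limit, so the size of the SNORD65 change is uncertain. SNORD65 did not pass with dox alone.

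SNORA12 had 222.8, 256.3 and 218.7 in DHT with dox and 377.1, 306.1 and 373.9 in DHT (log2 change -0.60 ± 0.10; 1.51-fold lower; limma adjusted p = 0.000134), again without overlap. SNHG7 had 3829.8, 3468.4 and 4088.6 in DHT with dox and 4548.3, 4456.4 and 4380.9 in DHT on ILMN_3227023 (log2 change -0.24 ± 0.07; limma adjusted p = 0.0138). That call was lost without the first DHT array (-0.22; limma adjusted p = 0.0504) or the second array of DHT with dox (-0.17; limma adjusted p = 0.0957). The other SNHG7 probes did not pass here: ILMN_3233229 changed by 0.09 (limma adjusted p = 0.637) and ILMN_3233205 by 0.15 (limma adjusted p = 0.277). The test of whether the dox change differs with DHT (the interaction) gave 0.28 for ILMN_3227023 (limma adjusted p = 0.337) and 0.57 for ILMN_3233229 (limma adjusted p = 0.229), so a difference between both backgrounds was not shown. SNHG9 rose by 0.31 (limma adjusted p = 0.00745) and SNHG6 by 0.29 (limma adjusted p = 0.00417) with DHT present. The other SNHG genes did not pass there, with changes of -0.23 for an SNHG32 probe to 0.15 for an SNHG5 probe and 0.02 for SNHG12.

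**Figure D2:**
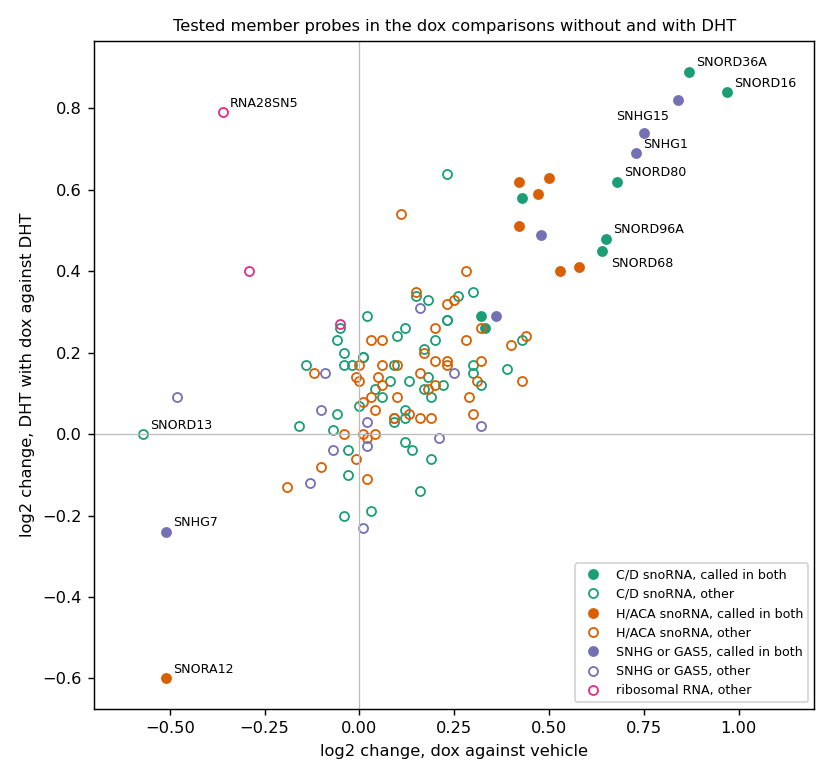
Log2 change of each of the 135 tested member probes in dox against vehicle (horizontal axis) and in DHT with dox against DHT (vertical axis), coloured by class; filled points passed limma's test at an adjusted p under 0.05 in the same direction in both. SNORD16, SNORD36A, SNHG15 and SNHG1 lie at the upper right, SNORA12 and SNHG7 at the lower left, and 28S probe ILMN_3251587 (RNA28SN5) is below 0 on the horizontal and at 0.79 on the vertical axis. Members at background in a group are drawn at their fitted change.

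The snoRNAs were then set beside the genes that contain them. Of the 114 tested snoRNA probes, 109 lay inside an annotated gene, and for 84 of these the host had a tested probe of its own (59 hosts). Of 18 such snoRNA probes that rose with dox alone, the host rose for 7, fell for 0 and did not pass for 11. Of all 59 hosts 20 rose and 5 fell, and for 31 snoRNA probes the host passed while the snoRNA did not. Over all tested probes 12.4% rose and 12.1% fell, but each host was read by its brightest probe, so both are not like measures. SNORD30 (0.43) rose with its host SNHG1 (0.73), SNORA61 (0.43) with SNHG12 (0.32), and SNORA67 (0.42) with the translation factor EIF4A1 (0.29). SNORD57, with its bound of at least 1.12-fold, lies in NOP56 (0.76), itself a core protein of the box C/D particle. SNORD14C (0.33) and SNORD14D (0.30) rose with the chaperone gene HSPA8 (0.53). The SNORD14D call was lost without the first vehicle array (limma adjusted p = 0.0743), the second vehicle array (limma adjusted p = 0.0924) or the third dox array (limma adjusted p = 0.0829). SNORA10 (0.47) rose with RPS2 (0.20; limma adjusted p = 0.041), a host call that was lost with background subtracted (0.21; limma adjusted p = 0.0532) and, among others, without the third vehicle array (0.15; limma adjusted p = 0.187).

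Of 17 ribosomal protein genes among the tested hosts, 1 (RPS2) rose and 0 fell with dox alone, with changes of -0.16 to 0.20. Of the 42 other hosts, 19 rose and 5 fell. Several ribosomal protein probes read near the top of the range, such as RPS12, with means of 25531 in dox and 24220 in vehicle. The highest value on any array was 27321.9, and whether this limits their changes was not tested. SNORD16 rose by 0.97 on the log2 scale, and RPL4, its host, changed by 0.15 (limma adjusted p = 0.217) between means of 11156 in dox and 10052 in vehicle. SNORD36A rose by 0.87 while RPL7A changed by -0.13, with means of 10407 in dox and 11348 in vehicle. SNORD68 rose by 0.64 and its host RPL13 changed by -0.14, with means of 4049 in dox and 4491 in vehicle. RPL4, RPL7A and RPL13 did not pass. Whether the change of a snoRNA differed from that of its host was not tested. SNORA24 (0.44) was higher without a call for SNHG8 (-0.07), while SNORA9, with 0.23, did not pass although SNHG15 rose by 0.75.

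With DHT present, 18 snoRNA probes with a tested host rose, and the host rose for 8, fell for 2 and did not pass for 8. Of all 59 hosts 20 rose and 8 fell there, and for 29 snoRNA probes the host passed while the snoRNA did not. Over all tested probes 12.4% rose and 13.6% fell, again not a like measure. SNORD110 (0.34) and SNORD57 (at least 1.10-fold) rose with NOP56 (0.84), SNORD25 (0.34) and SNORD31 (0.28) with SNHG1 (0.69), and SNORA9 (at least 1.03-fold) with SNHG15 (0.74). Each of these snoRNA calls was lost under some setting. That of SNORD110 was lost without the second array of DHT with dox (0.20; limma adjusted p = 0.186) or any 1 DHT array, and that of SNORD25 without the third array of DHT with dox (0.27; limma adjusted p = 0.0511). SNORD31 was lost with the replicate block (limma adjusted p = 0.0563), with dim probes kept (limma adjusted p = 0.0685), with background subtracted (limma adjusted p = 0.0614) and without any of 4 single arrays. SNORD57 was lost with dim probes kept (limma adjusted p = 0.0692), with only the groups compared (limma adjusted p = 0.0544) and without any of 4 single arrays, and SNORA9 with background subtracted (limma adjusted p = 0.14) and without any of 3. SNORA63 rose by 0.40 and its host EIF4A2, a translation factor, fell by 0.27 on the log2 scale, a host call lost without the second DHT array (-0.18; limma adjusted p = 0.173), the third DHT array (limma adjusted p = 0.0501), the second array of DHT with dox (limma adjusted p = 0.0694) or the third (-0.21; limma adjusted p = 0.142). SNORD71, at background in DHT, rose at least 1.02-fold and its host AP1G1 fell by 0.39. The SNORD71 call was lost with background subtracted (limma adjusted p = 0.0799) and without the first DHT array (limma adjusted p = 0.0762), the third DHT array (limma adjusted p = 0.0502) or the second array of DHT with dox (limma adjusted p = 0.0557). SNORD80 and SNORD76 lie in GAS5 and SNORA73A and SNORA73B in SNHG3, hosts whose probes were too dim to test, so no host value stands beside them. Whether a snoRNA probe reads the mature snoRNA or the unspliced host RNA is not given in the sources used here, and near-identical copies, as for SNORA70, SNORD14 and SNORD36, may share a probe.

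**Figure D3:**
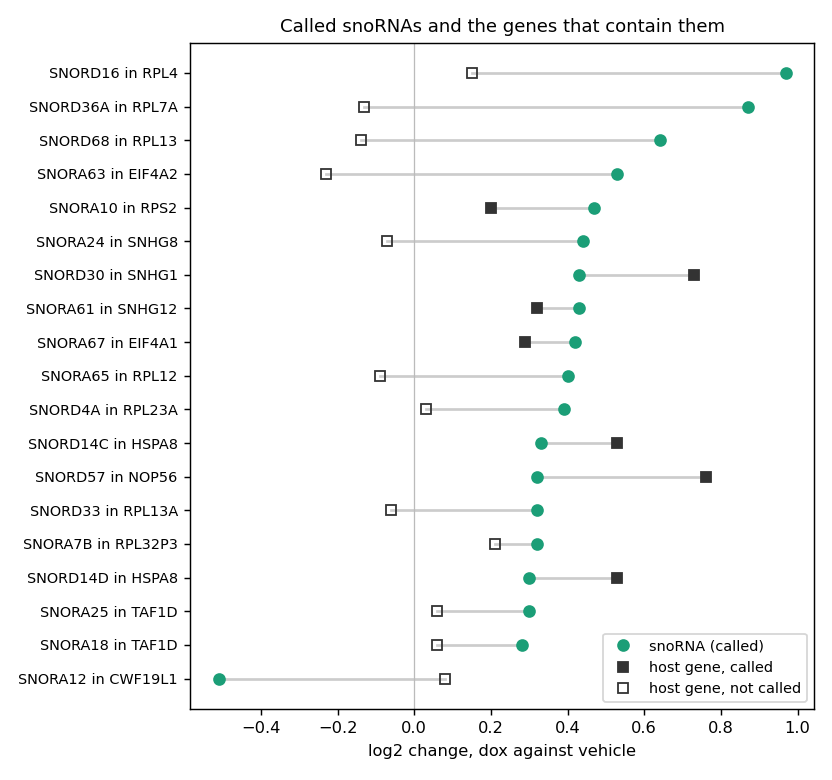
Log2 change in dox against vehicle of the 19 snoRNA probes that passed limma's test and whose host gene was tested (circles), each joined to its host (squares, filled where the host passed). The squares of SNORD16, SNORD36A and SNORD68 hosts lie near 0 while the circles reach 0.64 to 0.97; the only circle below 0 is SNORA12, and SNORD57, at background in vehicle, is drawn at its fitted change.

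DHT moved few members. In DHT against vehicle 1 of 135 members rose and 3 fell, where 2.73% of all tested probes rose and 1.91% fell (4.64% either way), and the members' median log2 change was 0.008, against 0.002 over all tested probes. SNORD16 was the snoRNA that fell: its DHT arrays at 265.8 to 285.9 lay below its vehicle arrays at 579.7 to 724.6, a log2 change of -1.21 ± 0.10 (SE; limma adjusted p = 1.39e-07). RPL4, its host, changed by -0.04 in the same comparison. In DHT with dox against dox, which shares no array with that comparison, SNORD16 again fell, by 1.33 ± 0.10 on the log2 scale (2.52-fold; limma adjusted p = 8.19e-08). It was the only member to pass there, 1 lower and 0 higher of 135, where 1.36% of all tested probes rose and 1.2% fell (2.56% either way). The lowest SNORD16 value of dox alone, 1068.4, lay above the highest of DHT with dox, 501.0.

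SNORD89 was the member that rose with DHT alone. It had 444.8, 389.8 and 395.0 in DHT, against 313.3, 328.0 and 309.3 in vehicle, with no overlap (log2 change 0.37 ± 0.09; 1.29-fold; limma adjusted p = 0.023). The call did not hold without the first DHT array (0.31; limma adjusted p = 0.125), the first vehicle array (0.36; limma adjusted p = 0.0577) or the third vehicle array (0.35; limma adjusted p = 0.0828). SNHG5, a host with a change of -0.25 on one probe, did not pass (limma adjusted p = 0.0931), nor did any other SNHG probe, with changes up to 0.22 (SNHG10) and down to -0.27 (SNHG7, ILMN_3233229).

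The other 2 members that fell with DHT alone were the probes of 28S ribosomal RNA (RNA28SN5), the RNA of the large ribosomal subunit. Probe ILMN_1733559 had 640.5, 598.0 and 629.3 in DHT, against 1082.7, 1221.3 and 1411.6 in vehicle (log2 change -0.98 ± 0.12; limma adjusted p = 2.36e-05). Probe ILMN_3251587 had 639.5, 575.9 and 816.2 in DHT and 1163.4, 1475.2 and 1649.1 in vehicle (log2 change -1.08 ± 0.17; limma adjusted p = 0.000522). On neither probe did the groups overlap. The 18S probe (RNA18SN5), for the small subunit, had 287.2, 286.7 and 444.9 in DHT and 469.1, 534.0 and 402.3 in vehicle, which overlapped (log2 change -0.49 ± 0.15; limma adjusted p = 0.0635).

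The 28S probes were higher with dox where DHT was present. In DHT with dox they had 915.6, 694.7 and 862.6 on ILMN_1733559 (log2 change 0.40 ± 0.12; limma adjusted p = 0.0159) and 1190.7, 1089.0 and 1201.4 on ILMN_3251587 (log2 change 0.79 ± 0.17; limma adjusted p = 0.00133), and all lay above the DHT arrays. The call of ILMN_1733559 was lost without the second DHT array (limma adjusted p = 0.0566), the first array of DHT with dox (limma adjusted p = 0.0861) or the third (limma adjusted p = 0.0629). With dox alone neither probe passed, and the dox and vehicle arrays overlapped on both: ILMN_1733559 had 862.3, 1197.0 and 998.0 in dox, and ILMN_3251587 had 769.8, 1473.9 and 1182.8 in dox, against the vehicle values above. All 3 ribosomal RNA probes had a change below 0 with dox alone, with a median log2 change of -0.286. For 2 of the 3 the unadjusted limma p was under 0.05. Against dox, DHT with dox changed by -0.30 (limma adjusted p = 0.194) and 0.07 (limma adjusted p = 0.885) on the same probes. The 18S probe did not pass in these comparisons either: it changed by 0.27 in DHT with dox against DHT (limma adjusted p = 0.202), by -0.05 in dox against vehicle (limma adjusted p = 0.839) and by -0.17 in DHT with dox against dox (limma adjusted p = 0.628).

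The interaction tested whether dox changed the 28S signal differently with and without DHT. It was 1.15 ± 0.24 on the log2 scale for ILMN_3251587 (limma adjusted p = 0.0532) and 0.68 ± 0.17 for ILMN_1733559 (limma adjusted p = 0.129), so neither passed. It depended on the settings for RNA28SN5 probe ILMN_3251587, with adjusted p-values of 0.0256 when dim probes were kept, 0.0287 with a replicate block and 0.278 with a robust prior in limma. No member passed the interaction test in the analysis as planned, where 12 had an unadjusted p under 0.05 and 0.154% of all tested probes passed. Ribosomal RNA comes from many repeated genes, lacks the long poly(A) tail of messenger RNA, and its array signal can follow how the RNA was primed and labelled, and the labels give no detail of that step. Its part in the result was not tested.

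**Figure D4:**
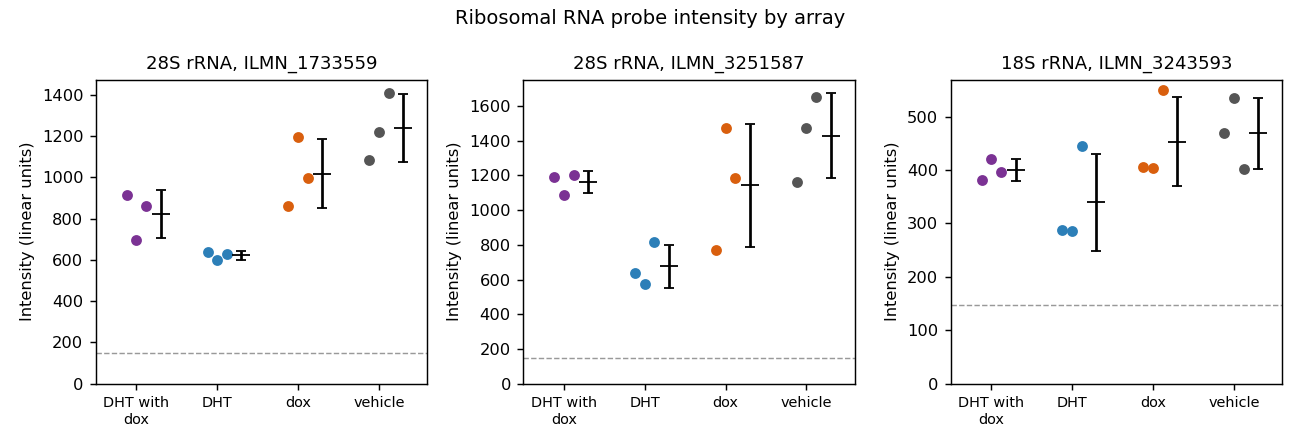
Intensity (linear units) of the 3 ribosomal RNA probes on every array, by group, with points for arrays and a bar for the mean ± SD of 3 arrays; the dashed line is the background limit of 147.4. On both 28S probes the DHT arrays lie below all vehicle arrays, with none above 816.2, although 1 dox array of ILMN_3251587 is at 769.8, and on the 18S probe 1 DHT array stands at 444.9 among the other groups.

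Compared with vehicle, DHT with dox gave 39 higher and 4 lower members of 135, where 14.3% of all tested probes rose and 14.7% fell (29.1% either way). The members' median log2 change was 0.130. SNORD36A rose by 0.99 (1.99-fold; limma adjusted p = 9.13e-08), SNHG15 by 0.92 and 0.88 on its probes, SNORD80 by 0.86, SNHG1 by 0.74, SNORD68 by 0.73, and SNHG17 and SNORA6 by 0.68 each. SNHG9 rose by 0.37 (limma adjusted p = 0.00168). SNHG6 (0.18; limma adjusted p = 0.0691) and SNHG12 (0.22; limma adjusted p = 0.101) did not pass. SNHG7 fell by 0.40 on 1 of its 3 probes, ILMN_3227023 (limma adjusted p = 0.000127), while ILMN_3233229 (-0.19; limma adjusted p = 0.262) and ILMN_3233205 (0.10; limma adjusted p = 0.495) did not pass. The 28S probe ILMN_1733559 fell by 0.59 (limma adjusted p = 0.000622), and ILMN_3251587 (-0.29; limma adjusted p = 0.223) and the 18S probe (-0.22; limma adjusted p = 0.29) did not pass. SNORD16 fell by 0.36 (limma adjusted p = 0.00834) and SNORA12 by 0.35 (limma adjusted p = 0.013). The SNORD16 call was lost without the first vehicle array (-0.27; limma adjusted p = 0.0588), and that of SNORA12 without the second vehicle array (limma adjusted p = 0.0528) or the third array of DHT with dox (limma adjusted p = 0.0555). This comparison shares its arrays with those above.

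The proteins that build snoRNA particles were read from lists of known factors. Of 4 tested box C/D core genes, 3 rose and 0 fell in dox against vehicle: NOP56 by 0.76, FBL, the methyltransferase, by 0.49, and NOP58 by 0.29 on the log2 scale. The NOP58 call was lost without the third vehicle array (0.24; limma adjusted p = 0.0569) or the first dox array (0.22; limma adjusted p = 0.0718). With DHT present the same 3 rose, by 0.84, 0.55 and 0.30. Of 4 tested box H/ACA core genes, 3 rose and 0 fell with dox alone: DKC1, the pseudouridine synthase, by 0.61, NHP2 by 0.37 and GAR1 by 0.31. With DHT present 2 rose, DKC1 and GAR1, by 0.40 each. NHP2 was the gene of these lists that passed in DHT against vehicle (0.41; limma adjusted p = 0.000707).

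Of 16 tested genes for assembly and trafficking of the particles, 7 rose and 0 fell with dox alone, and 8 rose and 0 fell with DHT present. RUVBL1, an ATPase of the assembly complex, rose by 0.82 in dox against vehicle and by 0.78 in DHT with dox against DHT. NOLC1, a chaperone of the particles in the nucleolus and Cajal bodies, rose by 0.62 in dox against vehicle and by 0.74 in DHT with dox against DHT. Of 17 tested genes for processing and decay, 3 rose and 2 fell with dox alone, among them the exonuclease XRN1, which fell by 0.47, and 5 rose and 1 fell with DHT present. Of 15 tested genes for RNA polymerase I, which transcribes the ribosomal RNA precursor, 5 rose and 1 fell with dox alone, and 4 rose and 1 fell with DHT present. POLR1C rose by 0.49 in dox against vehicle and did not pass with DHT present (0.23; limma adjusted p = 0.0795). POLR1E rose by 0.45 in dox against vehicle and by 0.30 in DHT with dox against DHT, and UBTF by 0.37 in DHT with dox against DHT. With dox alone, the polymerase I calls of TAF1B, TTF1 and TAF1C were lost when some single arrays were left out. So were the assembly calls of NAF1, NUFIP1 and TGS1. The POLR1E call with DHT present was lost with dim probes kept (limma adjusted p = 0.056), without the first DHT array (0.23; limma adjusted p = 0.161), the third DHT array (limma adjusted p = 0.0897) or the third array of DHT with dox (0.22; limma adjusted p = 0.176). These counts stand beside 12.4% of all tested probes that rose and 12.1% that fell with dox alone. With DHT present the shares were 12.4% and 13.6%. The list counts use the brightest probe of each gene, while the shares include dimmer and unnamed probes, so both are not like measures. The lists were chosen with earlier results known.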

How the data were processed

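Biotin-labelled total RNA was read on single-colour arrays, per the labels. The deposited values are linear probe intensities from GenomeStudio, per the submitters' processing notes. For its version, normalization and background step: not given in the sources used here. Sorted columns differed by at most 0.8 units, so the values were only taken to log2. All 12 arrays were used and 0 values were missing.

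Platform annotation gave 30113 probes a single symbol, updated through RefSeq (GRCh38.p14), and 8 several. Background was the 95th percentile of 638 olfactory receptor, keratin-associated, taste receptor and defensin probes. The 22035 probes above it in at least 1 group were fitted with 4 group means in limma 3.58.1 (lmFit, contrasts, eBayes with trend, R 4.3.3). P-values were two-sided, Benjamini-Hochberg adjusted over all of them, and called under 0.05. Where a group had 0 arrays above background, the fold is a bound against that limit. The number of arrays limits the precision. The fit was tested on simulated data.

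A snoRNA's host was the shortest annotated gene that contains it. The gene table used holds no strand, so strand was not checked, and the host's brightest probe was read. For each comparison, the members with the largest changes, up to 10, were named, with the tested ribosomal RNA and SNHG genes singly or by their range, and others where they bear on a host or a class. Members and lists were chosen with earlier results of these data known. Replicate numbers did not pair the arrays: deviations correlated at -0.115 to 0.196 over 18 pairs with the same number. Alternatives were other filters, scalings, background subtraction, a robust prior, 1 probe per gene, the replicate block, fits of only the groups compared, and leaving out each array.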

Additional observations from a re-analysis of the deposited data

How the results depend on the processing

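The planned analysis called 37 members in dox against vehicle, 4 in DHT against vehicle, 38 in DHT with dox against DHT, 1 in DHT with dox against dox and 43 in DHT with dox against vehicle. Leaving out 1 array gave 30 to 38, 3 to 5, 27 to 37, 1 to 1 and 36 to 44, in that order. The other settings gave 34 to 38, 4 to 4, 32 to 39, 1 to 1 and 37 to 48. No called change turned its direction under any setting run, and 24 of the 37, 3 of the 4, 20 of the 38, 1 of the 1 and 27 of the 43 kept their call under every one. With the replicate block the counts were 37, 4, 37, 1 and 42, and the interaction had 1. The interaction, 0 as planned, also had 1 with no filter on dim probes and with 1 probe per gene, and 0 to 2 when an array was left out (1 without the first vehicle array, 2 without the second dox array, 1 without the third DHT array). All were 28S probes, and the cause was not tested. Background still in the intensities compresses the changes of dim probes: subtracting it raised the members' median log2 change to 0.386 in dox against vehicle and 0.444 in DHT with dox against DHT. Members near the limit, and the 170 below it in every group, are those about which the arrays say least.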
